A study of Rattus norvegicus with 12 samples.

Results

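The rapamycin response that the c-myc null and the c-myc wild type fibroblasts held in common was measured over all 12 arrays of the series. The 6 arrays of rapamycin-treated cells were set against the 6 arrays of control cells in 1 fit, with the cell line as a block. A probe entered this fit when its detection p was under 0.05 on at least 3 of the 12 arrays, which left 10852 of 22523 probes (48.2%). A main effect of the treatment was then read as shared where both lines moved the same way, and the change of each line and the difference between the lines were taken from a second fit with a mean for every group. The question was which genes rapamycin moves whether or not c-Myc is present. HO15.19 cells lack both c-myc alleles and were derived by homologous recombination from TGR-1 cells, a subclone of Rat-1 rat embryonic fibroblasts that lacks hprt. The groups were HO15.19 cells with 50 nM rapamycin, HO15.19 cells with the DMSO vehicle, TGR-1 cells with 50 nM rapamycin and TGR-1 cells with the DMSO vehicle, each for 24 hr, with 3 arrays from independent biological replicates in each. All cells were kept under conditions that supported proliferation, but the lines grew at different rates, with doubling times of 45 to 60 hr for HO15.19 and 18 to 21.5 hr for TGR-1. Each line stands for 1 genotype, so line and genotype cannot be told apart.

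Rapamycin binds the immunophilin FKBP12, and the complex inhibits mTOR complex 1, a kinase that is switched on by growth factors and amino acids through the small GTPase Rheb. Active mTOR complex 1 promotes protein synthesis and ribosome production, raises the translation of the transcription factor ATF4, which drives genes of amino acid synthesis, uptake and tRNA charging, and restrains autophagy and the growth factor receptors upstream of it. c-Myc is a transcription factor that binds E-box sequences and serves many of the same ends, among them ribosome production, glycolysis and nucleotide synthesis.

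The mean raw signal was 255 to 405 on the rapamycin arrays and 261 to 369 on the control arrays, with 9701 to 10472 and 9605 to 9869 probes detected. The lowest and the highest signal were both on HO15.19 rapamycin arrays. The probe for Myc, the deleted gene, had log2 levels of 8.19, 7.95 and 8.10 in HO15.19 cells with rapamycin and 7.69, 7.94 and 7.88 in HO15.19 controls, against 9.53, 9.53 and 9.76 in TGR-1 cells with rapamycin and 9.07, 8.97 and 9.04 in TGR-1 controls. It was thus lower in HO15.19 on every array but detected on all of them, and its position relative to the deleted part was not stated in the sources used here. Of the 12 fibroblast markers looked for, 5 had a named probe (Col1a1, Col3a1, Fn1, Lum and P4hb), and their summed signal was 25254 to 25395 with rapamycin and 28759 to 29362 without it in HO15.19 cells, and 17661 to 19469 with rapamycin and 17880 to 19572 without it in TGR-1 cells. Of 7 epithelial and 7 macrophage markers 1 each was named, Krt7 and Cd14. Both were called higher with rapamycin. Krt7 stood at a signal of 243 to 255 with and 166 to 217 without rapamycin in HO15.19 cells and 490 to 569 with and 296 to 346 without it in TGR-1 cells. Cd14 stood at 176 to 259 with and 150 to 160 without rapamycin in HO15.19 cells and at 143 to 173 with and 120 to 145 without it in TGR-1 cells, and its call was lost in 7 of the 12 fits that left out 1 array (adjusted p up to 0.0685). No marker of endothelium, smooth muscle, fat cells or hepatocytes was named. Whether other cell types took part in the changes below was not tested.

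Rapamycin moved 1031 probes, 568 up and 463 down. With arrays centred on their median in place of quantile normalization the calls were 404 higher and 439 lower, so which direction held more calls depended on the scaling. A probe was called when its p was at most 0.01, the value after Benjamini-Hochberg adjustment was below 0.05 and the change reached 1.2-fold. These were 9.5% of the probes tested, 5.23% higher and 4.27% lower, and 2508 probes had an unadjusted p under 0.05. Most of the changes were small. The median called change was 1.31-fold, 138 probes (1.27%) moved by at least 1.5-fold, and 17 (0.157%) by at least 2-fold. In these bulk arrays, less RNA per cell and fewer cells that express a gene cannot be told apart. The median change over all tested probes was -0.01 on the log2 scale. Quantile normalization holds this value near 0, so it does not measure a change in total RNA.

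All 1031 called probes had the same sign in both lines, against 56.7% of the 9821 probes that were not called. A fit with line as a block counts disagreement between the lines as error, so such probes are favoured by the way the call is made. The medians of the called changes were close in the lines. Called rises had a median of 0.41 in HO15.19 and 0.42 in TGR-1, and called falls a median of -0.40 in HO15.19 and -0.36 in TGR-1. The change was larger in HO15.19 for 548 called probes and in TGR-1 for 483. As a description over probes, which are not independent replicates, the changes of the lines had a Pearson r of 0.438 and a Spearman coefficient of 0.355 over all tested probes.

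**Figure D1:**
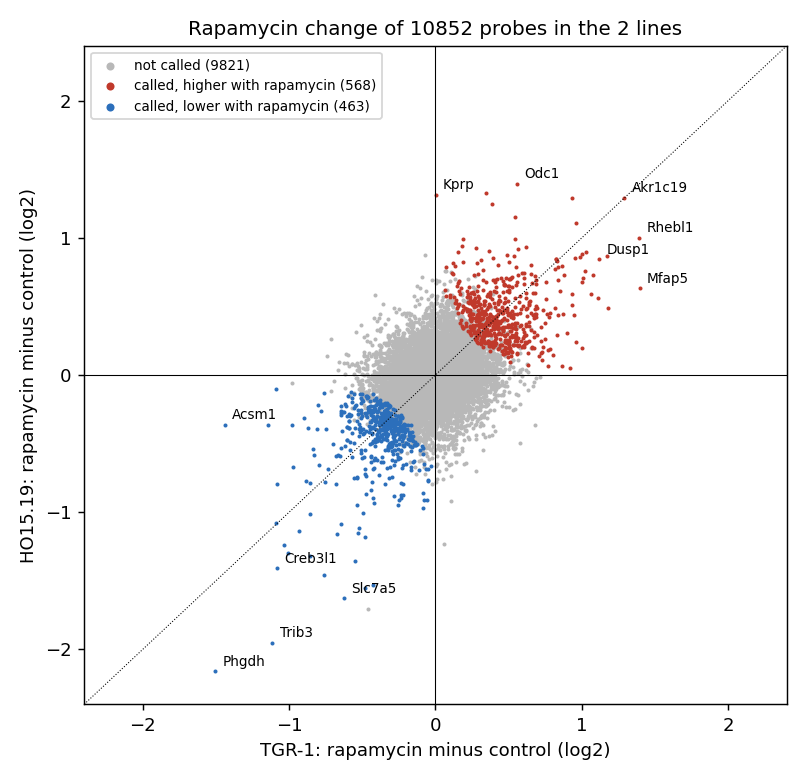
Rapamycin change in HO15.19 cells (vertical axis) against TGR-1 cells (horizontal axis), both as log2 rapamycin minus control, for 10852 tested probes, with the dotted line marking equal change. The 568 called rises (red) lie in the upper right and the 463 called falls (blue) in the lower left, and Phgdh and Trib3 have the largest falls.

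A stricter view asks that the 3 rapamycin arrays of a line all lie on the same side of its 3 controls, in both lines. Of the called probes 648 did so, 366 higher (3.37%) and 282 lower (2.6%), which is 5.97% of the probes tested, and over all tested probes, called or not, 798 (7.35%) did. Fewer probes passed the threshold in each line on its own. There were 140 (1.29%), 89 higher (0.82%) and 51 lower (0.47%), of which 139 also had groups that did not overlap in either line. Another 454 called probes passed in exactly 1 line and 437 in neither, so that these 437 passed the threshold only when the 12 arrays were read together. The count of 140 became 78 without TGR-1 rapamycin replicate 2 and also without TGR-1 control replicate 2.

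Names were available for 1734 probes of 1710 genes, all of them probes that the study had selected as changed in HO15.19 or TGR-1 on these same arrays. Named genes were called often, 49.2% of 1709 (27.1% higher, 22.1% lower), while 1.92% of the probes without a name were. The gene groups below hold only such named members. Their counts are to be read against these shares, and their direction is not independent evidence. Of the 28 lists, 319 genes were measured, of which 56 were called higher and 109 lower.

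Serine synthesis held the deepest fall. Phgdh, the enzyme that commits a glycolytic intermediate to serine, had log2 levels of 4.53, 4.80 and 4.51 in HO15.19 cells with rapamycin against 6.85, 6.79 and 6.68 in HO15.19 controls, and of 7.24, 7.30 and 7.58 in TGR-1 cells with rapamycin against 8.84, 8.84 and 8.95 in TGR-1 controls. All rapamycin arrays lay far below the controls of their line, and in HO15.19 the probe was no longer detected. The main effect was -1.83 (standard error 0.11, adjusted p = 2.17e-08 from limma). With the undetected group set at the lowest detected signal of its arrays, Phgdh was at least 3.59-fold lower in HO15.19, and the measured fall in TGR-1 was 2.84-fold. Psph, which completes the pathway by releasing phosphate from phosphoserine, had levels of 8.74, 8.74 and 8.78 with rapamycin and 10.01, 9.93 and 9.74 without it in HO15.19 cells, and 9.35, 9.33 and 9.47 with rapamycin and 10.29, 10.35 and 10.30 without it in TGR-1 cells. Its fall was close to 2-fold in each line (-1.14 in HO15.19 and -0.93 in TGR-1), and the groups were well apart. Shmt2, which passes the carbon of serine to folate in mitochondria, fell by 0.84 (adjusted p = 0.000681). A probe listed as LOC684490, described as similar to the mitochondrial methylenetetrahydrofolate dehydrogenase and cyclohydrolase, fell by 1.02. The list of serine and one-carbon genes does not hold this entry. Of its 15 genes 4 were named, and all 4 were called lower. The last of them, Mthfd1l, a mitochondrial enzyme that yields formate, was at -0.29, and its call was lost in 7 of the 12 fits that left out 1 array (adjusted p 0.0347 to 0.103).

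Among genes for charging tRNA with amino acids, nearly all of those that had a name were called lower. Of 22 listed, 16 were named, and 15 were called lower and none higher, with a median change of -0.62. Cars1, for cysteine, had the largest fall (-0.95, adjusted p = 0.000187), followed by Mars1 for methionine (-0.82), Tars1 for threonine (-0.76), Yars1 for tyrosine (-0.75) and Nars1 for asparagine (-0.74). The smallest called change was that of Rars1, for arginine (-0.31), a call lost in 8 of the 12 fits that left out 1 array (adjusted p up to 0.0993). The member that was not called, Aimp1, is a scaffold of the synthetase complex and not a synthetase, at -0.24 (adjusted p = 0.0654). Of all 463 probes called lower, 282 had arrays that did not overlap in either line and 51 passed in each line alone. Among the 15 these were 10 and 8. Nars1 was among these 8, with 9.52, 9.42 and 9.44 with rapamycin and 10.24, 10.40 and 10.12 without it in HO15.19 cells, and 10.41, 10.38 and 10.29 with rapamycin and 11.19, 10.95 and 10.98 without it in TGR-1 cells. The fall of Nars1 differed little between the lines, by -0.11 with a 95% interval of -0.45 to 0.22. Xpot, which exports tRNA from the nucleus, fell by 0.59 and also passed in each line; it was picked out after its values were seen.

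Falls in amino acid supply were found for some genes. Slc7a5, the light chain of the LAT1 carrier of large neutral amino acids, had levels of 7.42, 7.46 and 7.26 with rapamycin and 8.84, 9.17 and 9.02 without it in HO15.19 cells, and 9.22, 9.16 and 9.02 with rapamycin and 9.72, 10.03 and 9.52 without it in TGR-1 cells. The groups were separate in both lines, the gap being wider in HO15.19. It fell by 1.63 there and by 0.62 in TGR-1, and the difference of -1.0 (interval -1.41 to -0.60) had an adjusted p of 0.0586, just short of the threshold. Slc3a2, the heavy chain that pairs with Slc7a5, fell by 0.51. Of 5 named transporters these 2 were called. The cationic amino acid carrier Slc7a1 and the glycine carrier Slc6a9 were at -0.30 and -0.29 and were not called (adjusted p = 0.109 and 0.137), with Slc6a9 at 0.01 in TGR-1. The fifth, Slc38a4, a carrier of neutral amino acids, was at 0.23 (adjusted p = 0.174), with 0.43 in TGR-1. Asns, which makes asparagine, fell by 1.09 (adjusted p = 6.32e-06), with levels of 5.19, 5.35 and 4.81 with rapamycin against 6.51, 6.60 and 6.2 without it in HO15.19 cells, where 2 of 3 rapamycin arrays detected it, and 7.0, 7.04 and 7.25 with rapamycin against 7.95, 7.83 and 8.08 without it in TGR-1 cells. No array of one treatment reached the other in either line.

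The regulators of the amino acid and unfolded protein stress response fell as well. Of 14 named genes on the ATF4 and CHOP list, 9 were called lower and none higher, with a median of -0.63. Trib3, a pseudokinase induced by ATF4 and CHOP, had levels of 5.71, 6.17 and 6.26 with rapamycin and 8.17, 8.05 and 7.78 without it in HO15.19 cells, and 6.14, 6.08 and 6.3 with rapamycin and 7.40, 7.19 and 7.28 without it in TGR-1 cells. With rapamycin the means were 6.05 ± 0.29 in HO15.19 and 6.18 ± 0.11 in TGR-1 (SD, n = 3 each). Its main effect was -1.53 (adjusted p = 1.15e-06), with -1.95 in HO15.19 and -1.11 in TGR-1 and an adjusted p of 0.138 for the difference. Atf5, a transcription factor of the ATF4 family, fell by 1.11, Pck2, the mitochondrial phosphoenolpyruvate carboxykinase, by 0.86, and Ddit3, which encodes CHOP, by 0.67. Atf4 itself was called at -0.38 (adjusted p = 0.0468), with -0.69 in HO15.19 and -0.06 in TGR-1, and the call was lost in 10 of the 12 fits that left out 1 array (adjusted p up to 0.111). Chac1, which breaks down glutathione, was at -0.59 and was not called (adjusted p = 0.0546). Creb3l1, a transcription factor held in the endoplasmic reticulum membrane and known for its part in collagen secretion, fell by 1.25. Its levels were 7.56, 7.43 and 7.38 with rapamycin and 9.05, 9.05 and 8.50 without it in HO15.19 cells, and 7.58, 7.63 and 7.50 with rapamycin and 8.60, 8.48 and 8.88 without it in TGR-1 cells.

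**Figure D2:**
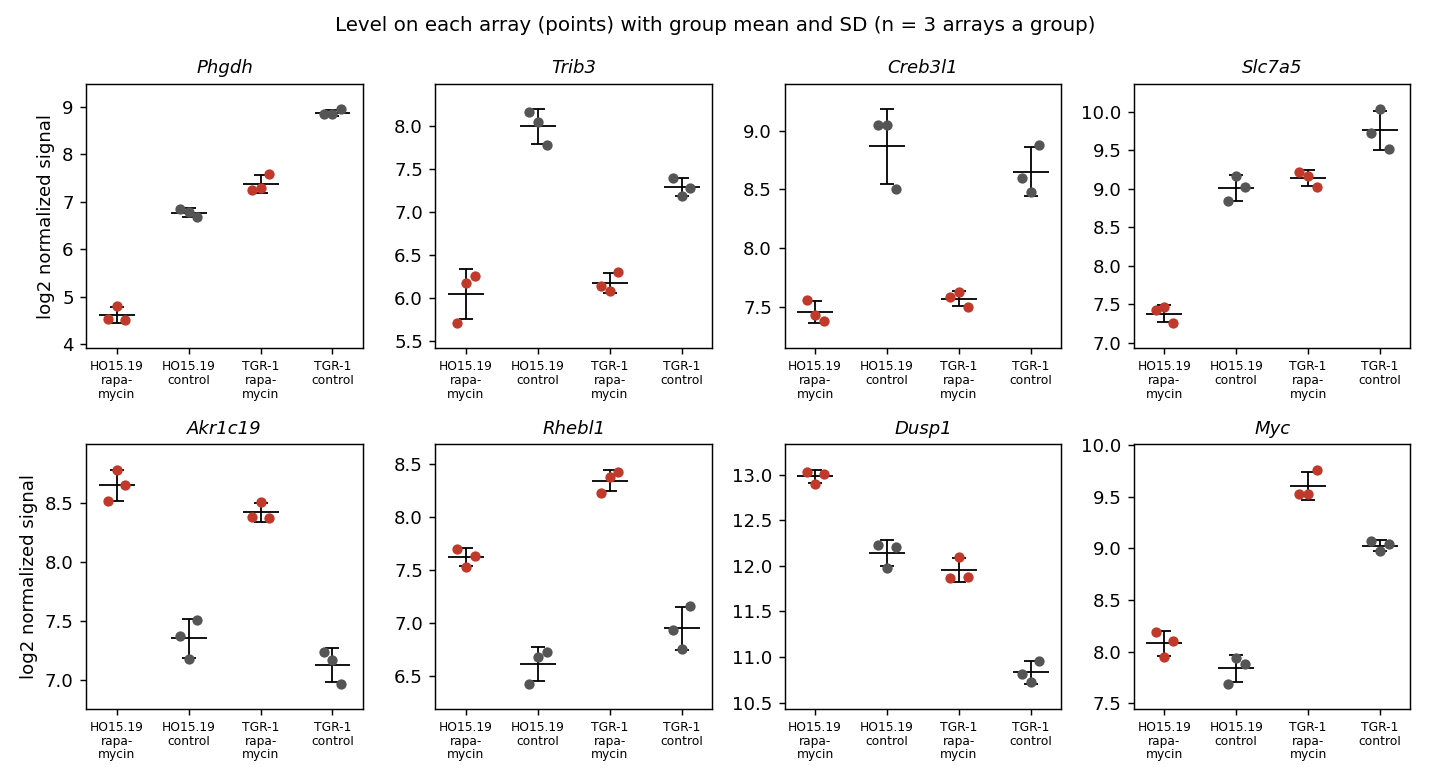
Log2 normalized signal (vertical axes, each with its own range) of 8 genes on each array, in HO15.19 rapamycin, HO15.19 control, TGR-1 rapamycin and TGR-1 control cells, with bars for the group mean and SD of 3 arrays. In Phgdh, Trib3, Creb3l1 and Slc7a5 all rapamycin points lie below the controls of their line, and in Akr1c19, Rhebl1, Dusp1 and Myc they lie above.

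The promoters of these genes can be set beside their changes. RefSeq promoters (rat genome build GRCr8, 250 bases before to 50 after the start of the gene) were found for 295 of the 378 genes called lower, 329 of the 463 called higher and 650 of the 868 named genes not called. On either strand the motif TGATGNAA, the core to which ATF4 and its C/EBP partners bind, was in 5.42% of promoters of genes called lower, 3.04% of those called higher, 2% of those not called and 3.98% of all 33469 promoters. The motif GTAAACA, bound by FOXO factors, was in 1.02% of promoters of genes called lower, 6.08% of those called higher, 2.15% of those not called and 3.78% of all. The E-box CACGTG, to which c-Myc and other factors bind, was in 13.2% of promoters of genes called lower, 11.2% of those called higher, 9.85% of those not called and 6.42% of all. These shares are descriptions, since base composition was not matched between the sets. The sets of named genes hold a single promoter per gene, whereas the set of all holds every entry of full length. The named genes not called had also been selected by the study as changed. A promoter was matched for 17 of the 24 leading genes, 8 of the 12 falls and 9 of the 12 rises. Among those 8 falls the first motif was present in Trib3 and Cars1, read on the opposite strand as TTNCATCA. Both promoters are shown, 5′ to 3′ on the strand of the gene, with the motif in capitals, since both genes fell in each line.
Trib3, chr3:161275484-161275783, minus strand: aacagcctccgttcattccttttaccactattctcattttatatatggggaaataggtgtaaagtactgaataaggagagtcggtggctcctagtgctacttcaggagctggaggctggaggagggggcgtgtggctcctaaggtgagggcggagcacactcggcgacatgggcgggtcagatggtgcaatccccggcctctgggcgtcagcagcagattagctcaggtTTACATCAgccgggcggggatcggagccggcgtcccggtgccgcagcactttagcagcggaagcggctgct
Cars1, chr1:208225320-208225619, minus strand: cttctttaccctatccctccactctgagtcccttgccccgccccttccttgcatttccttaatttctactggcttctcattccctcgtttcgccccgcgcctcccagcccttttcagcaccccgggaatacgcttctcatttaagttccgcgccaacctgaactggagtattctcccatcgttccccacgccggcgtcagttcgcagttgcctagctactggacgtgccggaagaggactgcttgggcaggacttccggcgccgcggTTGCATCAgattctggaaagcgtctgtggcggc
The E-box was present in 3 of the 17 leading genes with a matched promoter, Slc7a5, which fell, and Dusp1 and Ptgs2, which rose. These are shown with CACGTG in capitals, since c-Myc is among the factors that bind this sequence. Whether any factor acts at these sites was not tested.
Slc7a5, chr19:66872363-66872662, minus strand: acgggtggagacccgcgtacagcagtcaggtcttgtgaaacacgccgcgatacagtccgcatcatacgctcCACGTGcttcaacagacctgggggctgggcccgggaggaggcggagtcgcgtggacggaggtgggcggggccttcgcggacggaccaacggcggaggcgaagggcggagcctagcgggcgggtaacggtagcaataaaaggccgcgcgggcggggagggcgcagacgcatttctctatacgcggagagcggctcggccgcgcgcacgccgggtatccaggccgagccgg
Dusp1, chr10:17184603-17184902, plus strand: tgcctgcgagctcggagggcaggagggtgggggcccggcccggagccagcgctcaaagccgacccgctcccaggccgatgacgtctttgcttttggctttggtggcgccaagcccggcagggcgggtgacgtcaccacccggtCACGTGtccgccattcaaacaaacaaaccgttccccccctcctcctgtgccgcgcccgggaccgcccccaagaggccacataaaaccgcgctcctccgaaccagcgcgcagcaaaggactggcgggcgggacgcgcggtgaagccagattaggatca
Ptgs2, chr13:64713813-64714112, plus strand: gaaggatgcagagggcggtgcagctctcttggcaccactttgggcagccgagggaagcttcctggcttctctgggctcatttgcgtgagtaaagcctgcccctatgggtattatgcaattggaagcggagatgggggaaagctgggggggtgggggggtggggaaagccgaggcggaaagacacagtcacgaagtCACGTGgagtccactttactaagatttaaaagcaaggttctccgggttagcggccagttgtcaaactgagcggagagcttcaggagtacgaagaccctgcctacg

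Glycolytic genes fell, with 8 of 10 named members called lower and none higher (median -0.46). The leading falls were in Pfkp and Pfkl, 2 forms of phosphofructokinase, the committed step of the pathway, each by 0.71 (adjusted p = 0.000178 and 0.000379). Pfkp had levels of 6.74, 6.56 and 6.68 with rapamycin and 7.49, 7.37 and 7.17 without it in HO15.19 cells, and 7.32, 7.27 and 7.49 with rapamycin and 8.26, 7.72 and 8.30 without it in TGR-1 cells. Ldha, which turns pyruvate into lactate, fell by 0.60, and so did all 3 probes listed as similar to it (-0.63 to -0.38). Such copies can share a probe's sequence, so these 4 are not 4 separate observations. Pgk1, the first step that yields ATP, fell by 0.46 (adjusted p = 0.00333) and Pdk1, a kinase that inhibits pyruvate dehydrogenase, by 0.49. The lactate carrier Slc16a1 was at -0.23 and the muscle enolase Eno3 at -0.36, and neither was called (adjusted p = 0.111 and 0.0716). In lipid synthesis few members were named. Sqle and Mvd, enzymes of the cholesterol pathway, fell by 0.45 and 0.37, 2 of 7 named members, and Scd2, which desaturates fatty acids, fell by 0.44, 1 of 3. Of all named genes 22.1% were called lower. The cholesterol list had a median of -0.16 in HO15.19 and -0.41 in TGR-1, and the fatty acid list one of -0.04 and -0.52. The study had selected 7 and 3 of these members as changed in TGR-1, and 2 and 0 in HO15.19.

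Genes that build ribosomes fell, and none of the named ribosomal protein genes was called lower. Of 15 named genes of ribosome biogenesis, 9 were called lower and none higher (median -0.31). Wdr12, which acts in making the large subunit, was called at -0.54 with groups that overlapped in HO15.19. Rrp9 (-0.52) and Utp20 (-0.46), which act in processing the RNA of the small subunit, were separate in both, and Rrp9 passed in each line alone. The count of 9 became 5 without any 1 of 5 arrays, HO15.19 rapamycin replicates 1 and 2, HO15.19 control replicate 1, TGR-1 rapamycin replicate 1 and TGR-1 control replicate 3. Of 16 translation factors 6 were called lower and none higher. Eif3c, a subunit of the initiation factor eIF3, fell by 0.53 (adjusted p = 0.000915), Eif2s2 and Eif2b3, which serve the delivery of the initiator tRNA, by 0.42 and 0.40, while the elongation factor Eef2 was at 0.22 and was not called. Of 12 named ribosomal protein genes 3 were called higher, a share close to that of all named genes (27.1%), and none lower, with a median of 0.25. The 3 became 1 without HO15.19 rapamycin replicate 1 and also without HO15.19 control replicate 3, and 5 without HO15.19 rapamycin replicate 2. Rpl24 rose by 0.41 (adjusted p = 0.00431). Rpl31 and Rpl10a rose by 0.34 and 0.29, but these calls were lost in 3 and 6 of the 12 fits that left out 1 array, with adjusted p up to 0.0569 and 0.0599. Ribosomal protein genes have many near-identical copies, and no source used here states which copy a probe reads.

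Calls were also made in other growth-linked groups. The chaperones Hspa9, of mitochondria, and Hspa5, of the endoplasmic reticulum, fell by 0.54 and 0.46, among 6 of 13 named chaperone and folding genes called lower and none higher. Creb3l1, described above, is on this list too and had its largest fall. In mitochondria 4 of 8 named genes were called lower, with Slc25a5, which exchanges ADP for ATP, at -0.43 and Cyc1, a subunit of the third respiratory complex, at -0.36, and these 4 became 2 without HO15.19 rapamycin replicate 2 or HO15.19 control replicate 2 or 3. In the proteasome group 2 of 13 were called lower, a smaller share than the 22.1% of all named genes, and leaving out 1 array gave 1 to 4. Psma2, a subunit of the core particle, fell by 0.32, and Psmb6, another, was at -0.30 with a call lost in 8 of the 12 fits that left out 1 array (adjusted p up to 0.0893). Polyamine and nucleotide synthesis was split. Srm, the spermidine synthase, fell by 0.56 and Dhodh, an enzyme of pyrimidine synthesis, by 0.49. Odc1, which makes putrescine, the first polyamine, rose by 0.98 (adjusted p = 0.000124), with levels of 10.71, 10.63 and 10.79 with rapamycin and 9.38, 9.50 and 9.06 without it in HO15.19 cells, and 9.43, 9.77 and 9.85 with rapamycin and 9.09, 9.10 and 9.18 without it in TGR-1 cells. Both lines were separate, and the rise in HO15.19 was larger by 0.83 (interval 0.43 to 1.23), which did not pass over all probes (adjusted p = 0.105). In total this list had 3 of 12 members called higher and 5 lower, the 5 becoming 3 without TGR-1 control replicate 1.

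Among the rises Akr1c19, an aldo-keto reductase, led with 1.29 (standard error 0.09, adjusted p = 2.92e-08). Its levels were 8.52, 8.78 and 8.65 with rapamycin and 7.37, 7.18 and 7.51 without it in HO15.19 cells, and 8.38, 8.51 and 8.37 with rapamycin and 7.24, 7.17 and 6.97 without it in TGR-1 cells. The rise was 1.29 in each line, with a 95% interval of the difference of -0.36 to 0.36. Aldh3a1, an aldehyde dehydrogenase, rose by 0.83, while Mgst1, a glutathione transferase of membranes, fell by 0.37. Of 10 named redox and detoxification genes 2 were called higher and 4 lower, and the 4 became 2 without TGR-1 rapamycin replicate 2 or 3 or TGR-1 control replicate 1 or 2.

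Components of the mTOR pathway moved in both directions. Rhebl1, a close relative of Rheb, had levels of 7.70, 7.53 and 7.63 with rapamycin and 6.43, 6.68 and 6.73 without it in HO15.19 cells, and 8.23, 8.38 and 8.42 with rapamycin and 6.93, 6.76 and 7.16 without it in TGR-1 cells. Rapamycin arrays were higher throughout, and the main effect was 1.2 (adjusted p = 4.09e-07). Ddit4, an inhibitor of the pathway that acts upstream of Rheb, went the other way, with 7.35, 7.25 and 7.38 with rapamycin and 7.97, 8.07 and 7.90 without it in HO15.19 cells, and 7.01, 7.04 and 6.88 with rapamycin and 7.62, 7.73 and 7.96 without it in TGR-1 cells. It fell by 0.72 (adjusted p = 1.68e-05). Fkbp1a, which encodes FKBP12, the protein that rapamycin binds, fell by 0.32 (adjusted p = 0.0123). Tsc2, which holds Rheb in check, was at -0.14 and Pdpk1, a kinase that acts upstream of Akt, at 0.07, and neither was called (adjusted p = 0.471 and 0.771). These are the 5 named members, 1 higher and 2 lower.

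Genes under FOXO factors and genes of growth factor feedback moved mostly upward, with 8 of 15 called higher and 1 lower (median 0.32), against 27.1% and 22.1% of named genes. Depp1, a FOXO target listed under an older name, rose by 1.11, with 7.54, 7.83 and 7.96 with rapamycin and 6.64, 6.57 and 6.23 without it in HO15.19 cells, and 6.69, 6.43 and 6.75 with rapamycin and 5.73, 5.42 and 5.92 without it in TGR-1 cells. Igf1r, the receptor for insulin-like growth factors, rose by 0.53 (adjusted p = 0.000621), Ccng2, an inhibitory cyclin, by 0.44, and Trib2, a pseudokinase related to Trib3, by 0.56. Within the Tribbles pair Trib2 and Trib3 thus moved in opposite directions, although the TGR-1 change of Trib2 was 0.18 (adjusted p = 0.502) and its groups overlapped there. Sesn3, a sestrin that restrains mTOR complex 1, was called lower (-0.56), with -0.90 in HO15.19 and -0.23 in TGR-1 (adjusted p = 0.46), where its groups overlapped. Txnip, which limits glucose uptake, was at 0.31 and was not called (adjusted p = 0.0549). In the lysosome and autophagy group 4 of 8 were called higher and 3 lower. Map1lc3a, which encodes an LC3 protein of the autophagosome membrane, rose by 0.65 (adjusted p = 0.000548) and the mitophagy receptor Bnip3 fell by 0.63. The autophagy kinase Ulk1 rose by 0.41 and the lysosomal protease Ctsd by 0.32, but these calls were lost in 7 and 9 of the 12 fits that left out 1 array, with adjusted p up to 0.0789 and 0.103. The 4 calls of the group became 1 when HO15.19 control replicate 1 was left out, and 2 when it was TGR-1 rapamycin replicate 1 or 2 or one of the other HO15.19 controls.

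Immediate early genes and regulators of MAP kinases rose, with 8 of 12 called higher and 1 lower (median 0.39). Dusp1, a phosphatase that switches off MAP kinases, had levels of 13.03, 12.90 and 13.01 with rapamycin and 12.23, 11.97 and 12.21 without it in HO15.19 cells, and 11.87, 12.10 and 11.88 with rapamycin and 10.81, 10.72 and 10.96 without it in TGR-1 cells. It rose by 0.98 (adjusted p = 1.15e-06). Dusp6, another phosphatase of MAP kinases, rose by 0.77, and Zfp36l1, which promotes the decay of messenger RNAs with AU-rich elements, by 0.85. Fos, the classic immediate early gene, changed by 0.87 in TGR-1 cells, while only 1 of 6 HO15.19 arrays detected it. Its call (0.47, adjusted p = 0.0454) was lost in 10 of the 12 fits that left out 1 array, with adjusted p up to 0.105. Of the 8 rises, 4 had groups that did not overlap in either line, against 366 of all 568 probes called higher. The count of 8 became 5 without TGR-1 rapamycin replicate 2 or 3, TGR-1 control replicate 1 or HO15.19 rapamycin replicate 1. Targets of the SRF and YAP factors, which sense the actin skeleton, had 4 of 8 called higher and none lower. Ccn1, a secreted matrix protein, rose by 0.84 and the actin-binding Tpm1 by 0.50, whereas Ccn2, a relative of Ccn1, was at 0.21 and was not called (adjusted p = 0.305).

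Several proteins of the matrix rose, although the main fibrillar collagen fell. Omd, a small proteoglycan known from bone, had levels of 6.84, 7.23 and 6.86 with rapamycin and 5.86, 5.72 and 6.02 without it in HO15.19 cells, and 6.52, 6.24 and 6.24 with rapamycin and 5.74, 5.08 and 5.28 without it in TGR-1 cells, a rise of 1.04. Mfap5, a microfibril protein, rose by 1.01, Col14a1, a collagen that sits on the surface of fibrils, by 0.83, and Aspn, a proteoglycan related to Omd, by 0.81. Col14a1 rose by 0.83 in each line, with a 95% interval of the difference of -0.35 to 0.35. Col1a1, the main chain of type I collagen, fell by 0.46, and Col12a1, another fibril-associated collagen, by 0.58. In all 8 of 21 named matrix genes were called higher and 2 lower. Among proteases and matricellular proteins 5 of 11 were called higher and 1 lower. Ccn5, a matricellular relative of Ccn1, rose by 0.92. Mmp3, a matrix-degrading protease, was called at -0.38, and the call was lost in 8 of the 12 fits that left out 1 array (adjusted p up to 0.0799).

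**Figure D3:**
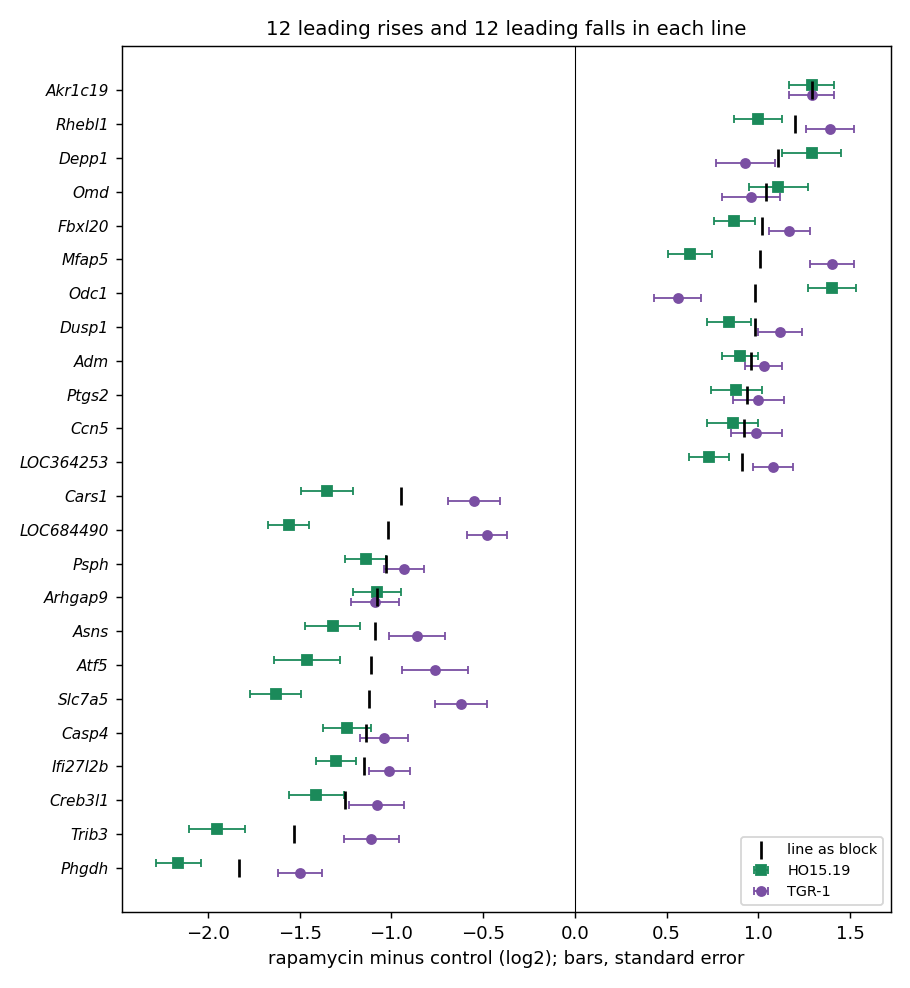
Rapamycin minus control (log2) in HO15.19 cells (squares) and TGR-1 cells (circles), with bars for the standard error, and the main effect with line as block (black ticks), for the 12 largest rises and 12 largest falls whose arrays did not overlap in either line. Akr1c19 and Arhgap9 have nearly equal changes in the lines, and for Slc7a5, LOC684490, Trib3 and Cars1 the HO15.19 value lies further below 0.

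Secreted mediators and immune genes were divided. Adm, the peptide adrenomedullin, which widens vessels, rose by 0.96 (adjusted p = 2.78e-07), with 10.03, 10.12 and 10.01 with rapamycin and 9.08, 9.13 and 9.26 without it in HO15.19 cells, and 9.20, 9.13 and 9.30 with rapamycin and 8.14, 8.17 and 8.23 without it in TGR-1 cells. Ptgs2, the inducible cyclooxygenase, rose by 0.94 and the adhesion molecule Icam1 by 0.56. Casp4, an inflammatory caspase listed as Casp11, fell by 1.14 (adjusted p = 4.09e-07), with 6.69, 6.79 and 7.14 with rapamycin and 8.08, 8.22 and 8.05 without it in HO15.19 cells, and 6.45, 6.63 and 6.64 with rapamycin and 7.48, 7.76 and 7.59 without it in TGR-1 cells. Oasl, an interferon-induced antiviral gene, fell by 0.74, and Ifi27l2b, listed as isg12(b) and related to interferon-induced proteins, by 1.15. On the interferon and inflammatory list, which does not hold Ifi27l2b or Adm, 7 of 19 were called higher and 2 lower. Irf1, an interferon regulatory factor, was at 0.26 and was not called (adjusted p = 0.0746). Arhgap9, a GTPase-activating protein, fell by 1.08 with near equal falls of 1.08 in HO15.19 and 1.09 in TGR-1, and Fbxl20, an F-box protein of a ubiquitin ligase, rose by 1.02.

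The Myc network was represented by 3 genes. Myc itself was called higher with rapamycin, by 0.42 (adjusted p = 0.00638), with the array values given above. The change was 0.25 in HO15.19 (adjusted p = 0.258), where the probe reads a line with both alleles inactivated, and 0.58 in TGR-1 (adjusted p = 0.00785). Mxd4, a dimerization partner of Max that opposes Myc, rose by 0.59 and passed in each line. Its relative Mxd3 was at 0.27 and was not called (adjusted p = 0.187). Of the cell cycle genes, Ccnd1, cyclin D1, rose by 0.33 (adjusted p = 0.0174), with 12.13, 11.93 and 12.06 with rapamycin and 11.81, 11.89 and 11.75 without it in HO15.19 cells, and 11.19, 11.18 and 11.44 with rapamycin and 10.78, 10.74 and 10.95 without it in TGR-1 cells. The groups were separate but close in HO15.19. Ccng1, a p53 target, fell by 0.41. Id2, which blocks helix-loop-helix factors, was called lower (-0.59), with -0.10 in HO15.19 (adjusted p = 0.768) and -1.09 in TGR-1.

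By their medians, the lists of mitosis and DNA replication genes were the 2 on which the lines lay furthest apart. Close behind were the interferon and inflammatory list (-0.07 in HO15.19, 0.43 in TGR-1) and the fatty acid list (-0.04 in HO15.19, -0.52 in TGR-1). Of 33 named mitosis genes 12 were called lower and none higher (median -0.29), and of 20 replication and repair genes 6 were called lower and none higher (median -0.22). Mitosis genes had a median change of -0.53 in HO15.19 against 0.00 in TGR-1, and replication genes one of -0.56 in HO15.19 against 0.02 in TGR-1. The difference between the lines passed for 3 of the mitosis genes (Ncapd2, Incenp and Kif20a) and 2 of the replication genes (Mcm10 and Pold1), none of which was called in the shared response. Ccna2, cyclin A2, fell by 0.58 and was separate in both lines, with 8.83, 8.92 and 8.52 with rapamycin and 9.53, 9.83 and 9.65 without it in HO15.19 cells, and 9.99, 10.01 and 10.12 with rapamycin and 10.40, 10.25 and 10.22 without it in TGR-1 cells. Cdc25b, a phosphatase that activates mitotic kinases, fell by 0.53, Pole2, a subunit of DNA polymerase epsilon, by 0.52 and Orc1, which marks replication origins, by 0.42. Each of these was separate in both lines, whereas Foxm1, a transcription factor of mitotic genes, was called (-0.53) on changes of -0.97 in HO15.19 and -0.09 in TGR-1 (adjusted p = 0.791). The names of 32 mitosis and 20 replication members came from the table for HO15.19, and of 2 and 1 from that for TGR-1. Genes named for a change in 1 line tend to show a larger change there, so the gap is not independent of this selection. Without 1 HO15.19 array, whichever it was, 4 to 7 mitosis genes were called lower in place of 12, with 4 without HO15.19 control replicate 1. Replication and repair genes called lower numbered 2 without HO15.19 rapamycin replicate 1 or HO15.19 control replicate 1 or 2, and 3 without HO15.19 rapamycin replicate 3 or HO15.19 control replicate 3, in place of 6.

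**Figure D4:**
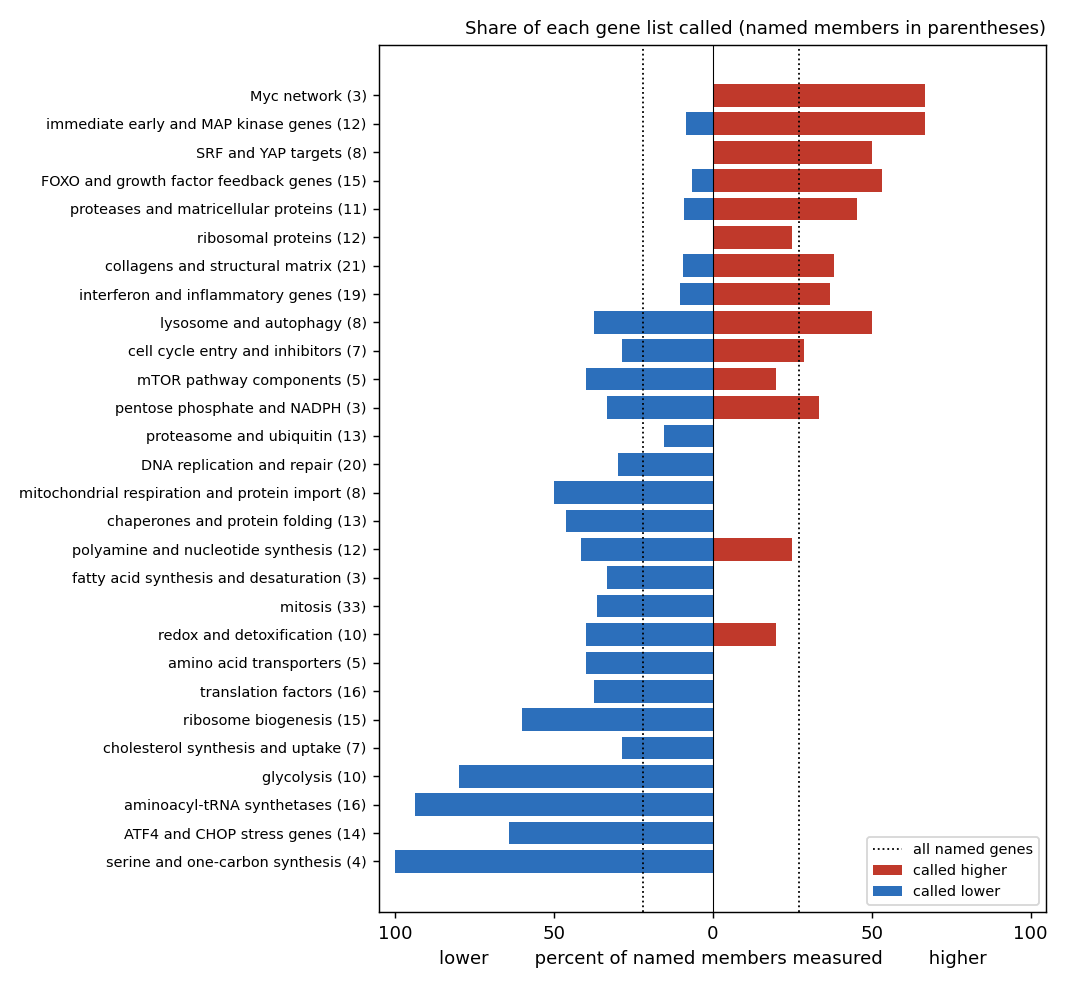
Share of the named members of each gene list called higher (red, to the right) or lower (blue, to the left) with rapamycin, with line as block, as a percentage of the members measured, whose number follows the name of the list. Dotted lines mark the shares over all named genes, 27.1% higher and 22.1% lower, and serine synthesis, tRNA synthetases and glycolysis reach furthest to the lower side.

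Some genes outside these lists passed in each line on its own and were picked out after their values were seen. Klhl24, a kelch protein, rose by 0.89, and Crebrf, a regulator of the stress factor CREB3, by 0.83. Pdcd4, which inhibits the initiation factor eIF4A, rose by 0.58 and Bckdha, a subunit of the complex that degrades branched-chain amino acids, by 0.69. Ltbp2, which belongs to the latent TGF-beta binding proteins, rose by 0.84 and the vasoconstrictor peptide Edn1 by 0.76. Among the falls were Lonp1, the mitochondrial protease, by 0.55 and Ripk3, the kinase of necroptosis, by 0.62. Smim14, a small membrane protein, rose by 0.73, and so did 4 more probes described as similar to the same cDNA (0.69 to 0.91), LOC364253 among them. All 5 were called and separate in both lines, and as with Ldha such copies may share sequence.

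Few called probes passed the test of a difference between the lines. The difference passed for 12 of all tested probes (0.111%), and 3 of these were among the 1031 called (0.0276% of those tested). Of the 1031 called probes, 159 had an unadjusted p under 0.05 for the difference. The 3 were LOC684490, with -1.56 in HO15.19 and -0.48 in TGR-1 (adjusted p = 0.013), Acsm1, an acyl-CoA synthetase, with -0.36 in HO15.19 and -1.44 in TGR-1 (adjusted p = 0.0283), and Kprp, a keratinocyte protein, with 1.31 in HO15.19 and 0.00 in TGR-1 (adjusted p = 0.0105). Kprp was not detected on any TGR-1 array and Acsm1 on 1 of 6 HO15.19 arrays, so that the change of Kprp in TGR-1 and of Acsm1 in HO15.19 was not measured above background. The count of 3 became 0 without TGR-1 rapamycin replicate 2 or 3. A difference that did not pass does not show that the lines responded alike. Among the leading genes the 95% interval of the difference was -0.36 to 0.36 for Akr1c19 and -0.38 to 0.40 for Arhgap9. It lay below 0 for Trib3 (-1.27 to -0.40) and Slc7a5, with adjusted p over all probes of 0.138 and 0.0586, neither of which passed. The interval also lay below 0 for the falls of Cars1 (-1.24 to -0.37), Atf5 (-1.24 to -0.15), Asns (-0.90 to -0.02) and LOC684490. For the rises of Mfap5 (-1.13 to -0.40) and Rhebl1 (-0.76 to -0.02) it lay below 0 too, and for that of Odc1 above 0. Of all these only LOC684490 passed over all probes. For the other leading genes with an interval it spanned 0 or reached 0 when rounded. For Phgdh no interval is given, since the change in HO15.19 is a bound.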

How the data were processed

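Total RNA of rat fibroblasts was hybridized to Illumina BeadChips, 1 array per sample. The deposited non-normalized signals (intensity) and detection p-values per probe came from BeadStudio (version not given), and Partek 6.3 is also named in the submitters' processing notes. The authors' quantile-normalized values were deposited on a linear intensity scale and served as an alternative. The authors' comparison tables also hold fold changes, group means and p-values, which were not used. Only their gene symbols and definitions were read, with symbols updated through RefSeq identifiers for 1551 probes by Entrez identifier and 2 by accession, and 181 kept as listed. Signals were background-corrected and quantile-normalized with neqc (offset 16) of limma 3.58.1 in R 4.3.3, giving log2 levels. Probes detected (p under 0.05) on 3 or more of the 12 arrays were fitted as line plus treatment with lmFit and eBayes, and a fit of group means gave each line's change and the difference. P-values were adjusted by Benjamini-Hochberg over all tested probes, and intervals use the same fits. A probe was called at an adjusted p under 0.05, a p of at most 0.01 and at least 1.2-fold. For a group with no detected array, a fold is a bound, set on each array by the higher of the lowest detected signal and the probe's own. A gene with several probes was read from the one with the highest mean level. The genes named were the 12 largest rises and falls with separate groups, up to 4 called and 2 uncalled members of each list, the Myc network and mTOR lists, and Pgk1, Ccnd1 and Phgdh. Atf4, Rars1, Mmp3, Krt7, Cd14 and the genes named only for a difference between the lines or for passing in each line were picked after their values were seen. Some list members are counted but not reported by name here. The lists and members were chosen with earlier results of these data known. The code was checked on simulated data. Scan or slide batches are not given in the sources used here, and the number of arrays limits the precision.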

Additional observations from a re-analysis of the deposited data

Results flagged for a closer look

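The change with rapamycin differed between the lines, by a test of the difference itself, for 12 probes (0.111% of those tested, limma, adjusted p under 0.05), with 1057 at an unadjusted p under 0.05. The 12 became 0 without TGR-1 rapamycin replicate 3, 1 without TGR-1 rapamycin replicate 2 and 2 to 10 without any 1 of the other arrays. They became 1 with median centring, 7 with the replicate number as a block, 26 with array weights or without the filter on dim probes, 29 with detection on all 12 arrays, 46 with an intensity trend, 60 without background correction and 63 on the authors' values. Values are the log2 change in HO15.19 minus that in TGR-1, and the adjusted p is given with its range over the 12 fits that left out 1 array each.

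Among the called probes LOC684490, listed as similar to a mitochondrial folate enzyme, differed by -1.08 (adjusted p = 0.013, range 0.011 to 0.0652). Acsm1, an acyl-CoA synthetase, differed by 1.08 (adjusted p = 0.0283, range 0.0225 to 0.1), with levels of 4.54, 4.71 and 4.50 with rapamycin and 4.90, 5.08 and 4.85 without it in HO15.19 cells, where 1 of 6 arrays was detected, against 6.01, 5.87 and 5.60 with rapamycin and 7.27, 7.15 and 7.37 without it in TGR-1 cells. Kprp, a keratinocyte protein, differed by 1.31 (adjusted p = 0.0105, range 0.000506 to 0.053). Its levels were 6.58, 6.57 and 6.55 with rapamycin and 4.99, 5.17 and 5.60 without it in HO15.19 cells, and it was not detected on any TGR-1 array.

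The other probes were not called in the shared response. Chac1, which breaks down glutathione, differed by -1.29 (adjusted p = 0.0436, range 0.011 to 0.13), with -1.23 in HO15.19 and 0.06 in TGR-1. Of the genes of mitosis, Ncapd2, a condensin subunit, differed by -1.03 (adjusted p = 0.0283, range 0.011 to 0.116), Incenp, of the chromosomal passenger complex, by -0.84 (adjusted p = 0.0436, range 0.0179 to 0.145), and Kif20a, a mitotic kinesin, by -0.84 (adjusted p = 0.0314, range 0.0419 to 0.13). Of the replication genes, Mcm10 differed by -0.98 and Pold1, the catalytic subunit of DNA polymerase delta, by -0.85 (adjusted p = 0.0436 and 0.0452, range 0.0179 to 0.145 for both). All 5 had a negative change in HO15.19, between -0.92 and -0.64, and a positive one in TGR-1, between 0.11 and 0.28. A probe listed as similar to the histone H2ax differed by -1.05 (adjusted p = 0.0105, range 0.011 to 0.0506), with -0.37 in HO15.19 and 0.68 in TGR-1. Ccl2, a chemokine for monocytes, differed by -1.07 (adjusted p = 0.0436, range 0.0162 to 0.145), with -0.49 in HO15.19 and 0.58 in TGR-1. LOC306428, listed as similar to a heat shock protein, differed by 0.99 (adjusted p = 0.0436, range 0.0254 to 0.145), with 0.58 in HO15.19 and -0.41 in TGR-1.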

How the results depend on the processing

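The response of 1031 probes depended most on the line block. Without it 57 probes passed, all with the same direction in both lines and 55 with groups that did not overlap, and 155 of 203 called genes that were followed lost their call, since the difference between the lines then counts as error. No followed gene changed direction under any of 23 settings, and no call shared with another setting had the opposite sign. Several settings change only the error, the block or the probes tested. With equal groups they leave the estimate as it was, so the direction could not change under them. The fits that left out 1 array share nearly all their data with the main fit. A minimum of 1.5-fold left 138 probes, 121 of them with separate groups and 64 passing in each line. The count passing in each line was 237 without background correction, 237 on the authors' normalized values and 290 without adjustment, against 140, while the methods' t-test gave 1 (116 without adjustment). The count of called probes whose change differed between the lines was 11 with detection on all 12 arrays, 21 without background correction and on the authors' values, 1 with median centring, 19 with an intensity trend and 8 with array weights, against 3. With 1 array left out, the called probes numbered 803 to 1007, those with the same direction 802 to 1007, those with separate groups 605 to 738, those passing in each line 78 to 130 and those that differed between the lines 0 to 4, and 180 of 203 followed genes kept their call each time. Whether the replicate numbers pair the samples could not be decided from so few arrays. The correlation of same-numbered arrays ran from -0.05 to 0.25. Of 6 rapamycin arrays 2 correlated best with their own number, replicate 3 of each line. With the replicate number as a block 946 probes passed, 594 with separate groups, 137 in each line and 4 with a difference between the lines. Probes near background give bounds rather than changes, and 33 called probes had a group with no detected array.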
